A study of Homo sapiens with 4 samples.

Results

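Expression of 43 mitosis and spindle genes was compared between untreated U87MG cells and U87MG cells given chaetocin. The members were a fixed list of named genes of mitosis and the spindle, drawn up with earlier results of these data known, and no measured value entered the rule. All 43 were found among the 57905 genes in the tables, and all 43 were among the 16416 genes with enough reads to test. U87MG is an established human glioblastoma cell line, labelled wild type in all samples, and chaetocin is a fungal metabolite known as an inhibitor of histone lysine methyltransferases. The 2 chaetocin samples received 50 nM in DMSO for 24 h, and the 2 control samples were left untreated, so the solvent and the compound cannot be told apart. Polyadenylated RNA was sequenced, and the deposited counts summed to between 21241984 and 32590479 reads per sample. The samples of a group are not stated to be separate cultures, so the p-values measure only the spread between these samples.

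Mitosis begins when cyclin B bound to the kinase CDK1 is switched on by the CDC25 phosphatases, with PLK1 and the Aurora kinases acting beside it. Kinetochores then link chromosomes to spindle microtubules, and unattached kinetochores hold the spindle checkpoint on, which keeps the anaphase-promoting complex (APC/C) from destroying securin and cyclin B. Most of these genes are held down by the DREAM complex in resting and G1 cells and are activated in G2 and M phase by MuvB with MYBL2 (B-MYB) and FOXM1, so their RNA levels track proliferating cells. In bulk RNA, more cells in G2 and M phase and more transcript per cell cannot be told apart.

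The members lay modestly above the controls with chaetocin. No single member passed edgeR's test with TMM scaling, a filter on low counts and no block for replicate number. Levels are given as normalized CPM, which are read counts scaled to a common library size by TMM. Summed over the 43 members, the level was 7341 and 8234 CPM in the control samples and 9184 and 9750 CPM in the chaetocin samples, without overlap. The median log2 fold change of the members was 0.31 (a fold of 1.24) against 0.01 over all genes tested, and it ranged from -0.01 for *CKAP5* to 0.73 for *CDC25C*. The log2 fold change was above 0 in 42 of 43 members, against 50.9% of all genes tested, and below 0 in 1 member, *CKAP5*, against 49.1%. By the level in each sample, 28 members had both chaetocin samples above both controls, against 26.8% of all genes, and 0 had both below, against 26%. At an adjusted p under 0.05 in edgeR's quasi-likelihood test, 0 members were called higher and 0 lower, against 1.11% and 0.743% of all genes. At an unadjusted p under 0.05, 16 members were higher and 0 lower, against 10.9% and 9.43%. DESeq2's Wald test on the same genes called 4 members higher (*CDK1*, *CDC25C*, *NDC80* and *HMGB2*) and 0 lower, against 2.72% and 2.81%. With upper-quartile scaling, edgeR called 3 members higher (*CDK1*, *NDC80* and *HMGB2*) and 0 lower, against 1.5% (246) and 0.536% (88) of all genes. Without the filter it called 5 higher (also *CDC25C* and *AURKB*) and 0 lower, against 2.48% and 2.39% of 31692 genes. A fit with a block for replicate number called 7 members higher and is given below beside its counts over all genes.

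The 2 controls differed from each other in the same genes. Control 2 was above control 1 in 39 of 43 members, by a median of 0.17 on the log2 scale, against 51.1% of all genes tested. Chaetocin 2 was above chaetocin 1 in 22 of 43 members, against 50.2% of all genes. Against the control mean, the median member was higher by 0.27 in chaetocin 1 and by 0.33 in chaetocin 2 on the log2 scale. The part of the difference between the controls in these values was not tested.

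**Figure D1:**
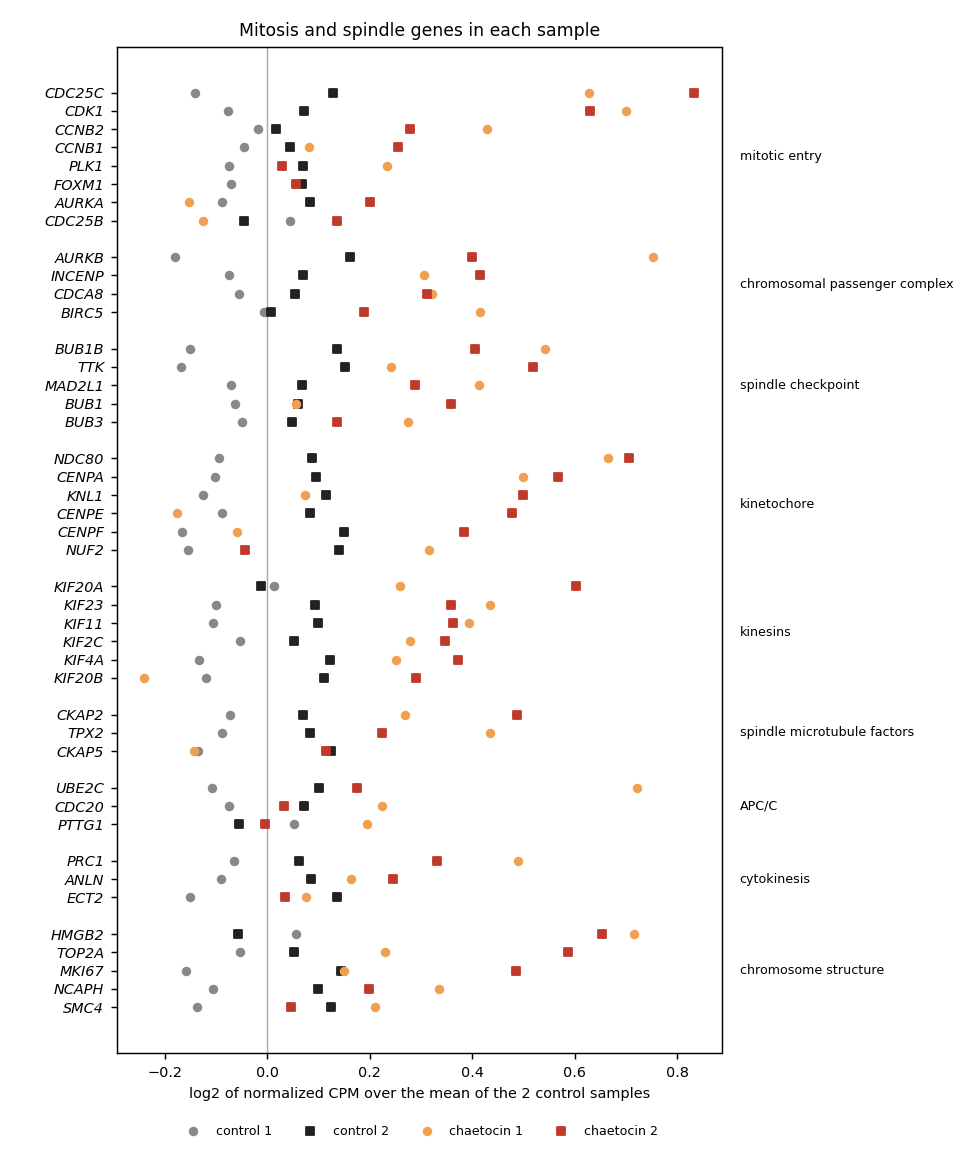
Each row is 1 of the 43 members, grouped by role, and each point is 1 sample placed by the log2 of its normalized CPM over the mean of the 2 controls (horizontal axis). In 28 members both chaetocin points lie to the right of both control points, and control 2 lies to the right of control 1 in 39.

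Members shared promoter sequence that the list did not use. RefSeq gave a window from 250 bases before to 50 after the transcript start for 34 of the 43 members. Other transcript starts of a gene were not searched. The cell-cycle genes homology region (CHR), searched as TTTGAA or TTTAAA on either strand, was found in 29 of the 34 windows (85.3%), against 24.3% of 27305 promoter windows of the same length. TTTGAA alone was found in 67.6% against 15.4%. CCAAT, the site of NF-Y, was searched on either strand and was present in 24 windows (70.6%), against 35.7% of all. A CHR match with its first base within 50 bases of the start, together with a CCAAT, occurred in 18 members (52.9%) and in 3.07% of all windows. In the 121 windows of other mitotic genes, described below, the shares were 39.7% for CHR, 52.1% for CCAAT and 19% for this combination. The following 180 bases before the start, from RefSeq on GRCh38.p14, are shown because each carries both motifs while their genes range from a log2 fold change of 0.96 (*NUSAP1*) to the smallest of the members (*CKAP5*). They are written 5′ to 3′ on the strand of the gene, with CHR and CCAAT matches of either strand in capitals.
CDK1: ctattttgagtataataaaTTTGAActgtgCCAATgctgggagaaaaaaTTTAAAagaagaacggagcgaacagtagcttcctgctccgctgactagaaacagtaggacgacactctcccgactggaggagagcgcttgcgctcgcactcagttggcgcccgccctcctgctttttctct
CCNB1: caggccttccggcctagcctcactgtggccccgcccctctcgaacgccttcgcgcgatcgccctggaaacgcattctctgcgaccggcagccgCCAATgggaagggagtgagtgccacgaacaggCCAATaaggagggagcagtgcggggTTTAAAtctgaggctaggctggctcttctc
CCNB2: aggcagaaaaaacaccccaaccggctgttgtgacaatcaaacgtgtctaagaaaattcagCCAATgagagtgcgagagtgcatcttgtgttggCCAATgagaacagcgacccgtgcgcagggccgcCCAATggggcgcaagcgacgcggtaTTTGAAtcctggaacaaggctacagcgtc
PLK1: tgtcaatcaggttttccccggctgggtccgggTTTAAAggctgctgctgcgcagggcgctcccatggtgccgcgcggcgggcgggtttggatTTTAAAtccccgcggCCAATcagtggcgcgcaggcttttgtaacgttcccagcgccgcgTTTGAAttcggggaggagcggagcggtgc
CKAP5: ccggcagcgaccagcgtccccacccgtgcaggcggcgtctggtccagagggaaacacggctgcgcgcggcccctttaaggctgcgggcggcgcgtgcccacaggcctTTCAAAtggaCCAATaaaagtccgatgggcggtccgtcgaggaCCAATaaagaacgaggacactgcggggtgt
NUSAP1: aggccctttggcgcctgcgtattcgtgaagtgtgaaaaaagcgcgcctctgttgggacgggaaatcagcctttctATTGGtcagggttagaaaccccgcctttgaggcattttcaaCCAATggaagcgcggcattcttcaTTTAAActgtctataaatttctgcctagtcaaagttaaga
These windows lie at chr10:60778151-60778330 (plus strand) for *CDK1*, chr5:69166970-69167149 (plus) for *CCNB1* and chr15:59104966-59105145 (plus) for *CCNB2*. Those of *PLK1*, *CKAP5* and *NUSAP1* lie at chr16:23678709-23678888 (plus), chr11:46846281-46846460 (minus) and chr15:41332701-41332880 (plus). The last of these genes is not a member but a spindle gene of a further list described below. In *CCNB1*, *CCNB2* and *PLK1* the CHR match nearest the start began 30, 29 and 29 bases before it. The counts were made on GRCh37, and only gene names link them to these windows.

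A CHR match in the window did not go with a higher median among the members. The median log2 fold change was 0.31 in the 29 members with a match and 0.38 in the 5 without one. Among tested genes outside the list, 219 had a CHR match within 50 bases of the start and a CCAAT, and their median log2 fold change was 0.06, against -0.01 in the other 11299 with a window. edgeR called 10 of the 219 higher and 0 lower, and 118 higher and 92 lower of the other 11299. *CDC25C* had no match in its window, and *HMGB2* had no window among those searched. Since other starts were not searched, a gene without a match in its window may hold a CHR elsewhere.

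Mitotic entry genes ran from a log2 fold change of 0.01 (*CDC25B*) to 0.73 (*CDC25C*). Of the 8, 4 had both chaetocin samples above both controls, against 26.8% of all genes, and their median log2 fold change as a role was 0.15. *CDK1* (chr10:60778331-60794852 on GRCh38), the kinase that drives entry into mitosis, was measured at 146 and 162 CPM in the controls and at 249.5 and 238 CPM with chaetocin. Both chaetocin samples lay above both controls, by more than the distance between replicates in either group. The log2 fold change of *CDK1* was 0.67 ± 0.15 (SE, n = 2 per group), with an adjusted p of 0.0634 by edgeR. DESeq2 gave an adjusted p of 0.0109, and over all alternatives the adjusted p ran from 0.00377 to 0.493. *CDC25C* (chr5:138285265-138338355), a phosphatase that activates CDK1, was at 20.3 and 24.5 CPM in the controls and at 34.6 and 39.8 CPM with chaetocin, again without overlap. On the log2 scale the fold change of *CDC25C* was 0.73 ± 0.17 (SE), with an adjusted p of 0.0695 by edgeR and 0.0236 by DESeq2, and of 0.00206 to 0.453 over the alternatives. Part of its exons (8.78%) lies over exons of *FAM53C* on the other strand, and the strand setting of the counting is not given in the sources used here.

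The partners of these 2 genes had smaller log2 fold changes. *CCNB1*, the main B-type cyclin, was at 415 and 441 CPM in the controls and at 453 and 511 CPM with chaetocin, and the groups were apart by less than the distance between the chaetocin samples. The log2 fold change was 0.17 ± 0.17 (SE, adjusted p = 0.61 by edgeR). *CCNB2*, the second B-type cyclin, stood at a log2 fold change of 0.36 (adjusted p = 0.211 by edgeR), with both chaetocin samples above both controls. *CDC25B*, another CDC25 phosphatase, was at 108 and 102 CPM in the controls and at 96.3 and 115 CPM with chaetocin, so that the controls lay between the chaetocin samples. The kinases *PLK1* and *AURKA* overlapped between groups, with log2 fold changes of 0.13 and 0.04. *FOXM1*, a transcription factor of G2 and M phase genes, was at 134 and 147 CPM in the controls and at 146 CPM in both chaetocin samples. Within libraries, the ratio of *CDK1* to *CCNB1* was 0.351 and 0.366 in the controls and 0.551 and 0.465 with chaetocin. The ratio of *CDC25C* to *CDC25B* was 0.187 and 0.241 in the controls and 0.359 and 0.345 with chaetocin. Neither ratio overlapped between the groups, and since these pairs were set side by side after their values were seen, no test is given.

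**Figure D2:**
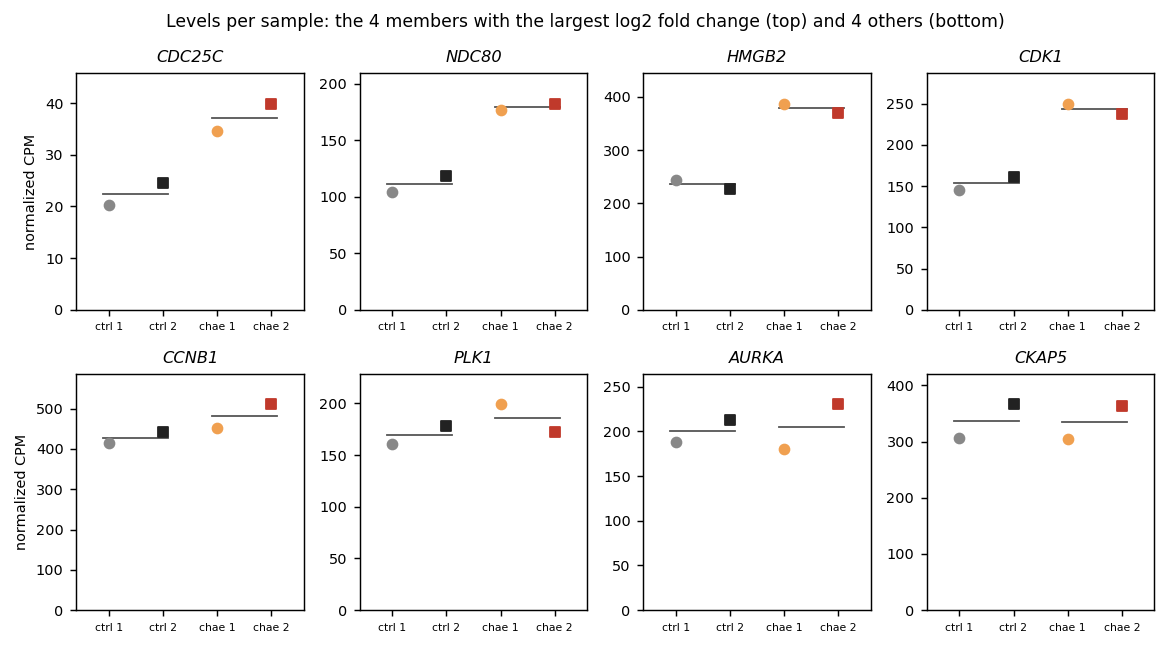
Each panel shows 1 member, with normalized CPM on a vertical axis from 0 and 1 point per sample (ctrl, control; chae, chaetocin), and the lines mark group means. The upper row holds the 4 members with the largest log2 fold changes, whose groups lie apart. In the lower row *CCNB1* lies apart by little, and *PLK1*, *AURKA* and *CKAP5* overlap.

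The chromosomal passenger complex, which corrects faulty attachments at centromeres and later acts in cytokinesis, was separated between groups in all 4 members. The share with both chaetocin samples above both controls was 26.8% over all genes, and the complex had a median log2 fold change of 0.34. *AURKB*, its kinase, was at 28.1 and 35.6 CPM in the controls and at 53.7 and 42.0 CPM with chaetocin. The higher control and the lower chaetocin sample were closer to each other than the replicates of either group. *AURKB* had a log2 fold change of 0.59 ± 0.19 (SE, adjusted p = 0.139 by edgeR). The scaffold *INCENP*, the targeting subunit *CDCA8* (borealin) and *BIRC5* (survivin) had log2 fold changes of 0.36, 0.32 and 0.31. *BIRC5* was at 45.7 and 46.1 CPM in the controls and at 61.2 and 52.3 CPM with chaetocin, and its 2 controls were nearly equal. The ratio of *AURKB* to *AURKA* within libraries was 0.149 and 0.168 in the controls and 0.297 and 0.182 with chaetocin.

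Spindle checkpoint genes had a median log2 fold change of 0.35, and 4 of the 5 were separated, against 26.8% of all genes with chaetocin higher. *BUB1B* (BUBR1), a subunit of the complex that inhibits the APC/C, was at 73.5 and 89.6 CPM in the controls and at 119 and 108 CPM with chaetocin. Its log2 fold change was 0.48 ± 0.16 (SE, adjusted p = 0.145 by edgeR). *TTK* (MPS1), the kinase that starts checkpoint signalling, and *MAD2L1*, which binds CDC20, had log2 fold changes of 0.39 and 0.35. *BUB3*, the adaptor that brings BUB1 and BUBR1 to kinetochores, was at 256 and 274 CPM in the controls and at 321 and 292 CPM with chaetocin, the smallest log2 fold change of this group at 0.21. *BUB1*, a kinetochore kinase, was the member that overlapped, since chaetocin 1 (117 CPM) was level with control 2 (118 CPM).

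Among the 6 kinetochore genes, *NDC80* and *CENPA* were separated and the other 4 overlapped. That is 2 of 6, against 26.8% of all genes with both chaetocin samples above both controls. *NDC80* (chr18:2571511-2616635) encodes the subunit that grips microtubules. It was at 105 and 119 CPM in the controls and at 177 and 182 CPM with chaetocin, so the groups lay far apart and the chaetocin samples close together. Its log2 fold change of 0.69 ± 0.15 (SE) had the lowest edgeR p of all members, at an adjusted p of 0.0562. DESeq2 gave 0.0094, and the adjusted p ran from 0.00178 to 0.455 over the alternatives. *CENPA*, the histone H3 variant that marks centromeres, was at 43.3 and 49.6 CPM in the controls and at 65.6 and 68.7 CPM with chaetocin, a log2 fold change of 0.53 ± 0.15 (SE, adjusted p = 0.102 by edgeR). *NUF2*, the direct partner of NDC80, was at 40.4 and 49.6 CPM in the controls and at 56.0 and 43.7 CPM with chaetocin. Its groups overlapped, with a log2 fold change of 0.15 ± 0.18 (SE). The large proteins *KNL1*, the scaffold that recruits the checkpoint, *CENPE*, a kinetochore motor, and *CENPF*, a fibrous kinetochore protein, had log2 fold changes of 0.30, 0.19 and 0.18. In *CENPE*, chaetocin 1 (169 CPM) was below both controls (179.5 and 202 CPM) and chaetocin 2 (266 CPM) above both.

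NDC80 works as a complex with NUF2, SPC24 and SPC25, the latter a pair that is in the wider list described below. *SPC25*, which joins the complex to the inner kinetochore, was at 28.2 and 26.9 CPM in the controls and at 48.7 and 57.5 CPM with chaetocin. It rose by 0.95 ± 0.16 (SE) on the log2 scale, with an adjusted p of 0.0341 by edgeR. *SPC24*, its direct partner, was at 42.7 and 55.0 CPM in the controls and at 75.1 and 53.7 CPM with chaetocin, with overlap and a log2 fold change of 0.40 (adjusted p = 0.321 by edgeR). The ratio of *NDC80* to *NUF2* within libraries was 2.58 and 2.39 in the controls and 3.16 and 4.17 with chaetocin. The ratio of *SPC25* to *SPC24* was 0.662 and 0.49 in the controls and 0.648 and 1.07 with chaetocin, which overlapped. Thus *NDC80* and *SPC25* were separated between groups, and their dimer partners were not. The difference between subunits was not tested.

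**Figure D3:**
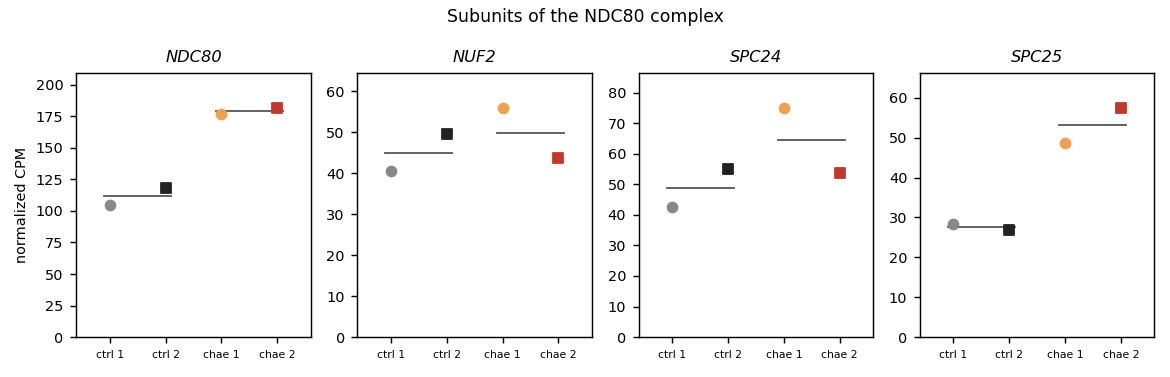
The 4 subunits of the NDC80 complex are shown in 1 panel each, with normalized CPM on a vertical axis from 0, 1 point per sample and lines at the group means. *NDC80* and *SPC25* have both chaetocin samples above both controls, whereas in *NUF2* and *SPC24* chaetocin 2 lies below control 2.

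Kinesins, the motors that build and order the spindle, were separated in 5 of the 6 members, against 26.8% of all genes with chaetocin higher. Their median log2 fold change was 0.35. *KIF20A* (MKLP2), which moves the passenger complex to the central spindle, was at 112 and 110.1 CPM in the controls and at 133 and 169 CPM with chaetocin. Its controls were nearly equal and both chaetocin samples above them, with a log2 fold change of 0.44 ± 0.16 (SE, adjusted p = 0.182 by edgeR). *KIF23* (MKLP1), a subunit of centralspindlin, and *KIF11* (Eg5), which pushes the spindle poles apart, had log2 fold changes of 0.40 and 0.38. The microtubule depolymerase *KIF2C* (MCAK) and the chromokinesin *KIF4A* each had a log2 fold change of 0.31. *KIF20B*, a kinesin of late cytokinesis, was at 136 and 160 CPM in the controls and at 125 and 181 CPM with chaetocin, and the controls lay between the chaetocin samples.

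The 3 spindle microtubule factors had unequal values. *CKAP2*, a microtubule stabilizer, was at 69.7 and 77.0 CPM in the controls and at 88.3 and 103 CPM with chaetocin, a log2 fold change of 0.38 ± 0.15 (SE, adjusted p = 0.208 by edgeR). *TPX2*, the activator of Aurora A, had a log2 fold change of 0.33 without overlap between groups. *CKAP5* (chTOG), a microtubule polymerase, was at 306 and 366 CPM in the controls and at 304 and 364 CPM with chaetocin. Both groups of *CKAP5* spanned nearly the same range, and its sign depended on the scaling, at -0.01 with TMM and 0.07 with upper-quartile factors.

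Among the APC/C genes, *UBE2C*, the E2 enzyme that starts ubiquitin chains for the APC/C, was separated and the activator *CDC20* and the substrate *PTTG1* (securin) overlapped. That is 1 of 3, against 26.8% of all genes with both chaetocin samples above both controls. *UBE2C* was at 98.1 and 113 CPM in the controls and at 174 and 119 CPM with chaetocin, so chaetocin 1 stood far above the other 3 samples. Its log2 fold change was 0.47 ± 0.20 (SE, adjusted p = 0.234 by edgeR), and it was 0.72 without chaetocin 2 and 0.19 without chaetocin 1. Reads on its processed copy *UBE2CP5* numbered 111 and 131 in the controls and 76 and 161 with chaetocin, those on *UBE2CP2* 5 and 3 in the controls and 29 and 34 with chaetocin, and reads shared between copies could not be told apart. *CDC20* had a log2 fold change of 0.13. *PTTG1* was at 274 and 254 CPM in the controls and at 302 and 264 CPM with chaetocin, with a log2 fold change of 0.10 ± 0.16 (SE).

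In cytokinesis, *PRC1*, which bundles the microtubules of the central spindle, was at 214 and 233 CPM in the controls and at 313 and 281 CPM with chaetocin. The groups were separated, with a log2 fold change of 0.41 ± 0.16 (SE, adjusted p = 0.193 by edgeR). *ANLN* (anillin), a scaffold of the contractile ring, had a log2 fold change of 0.21 without overlap. *ECT2*, the exchange factor that activates RHOA at the cell equator, was at 127 and 155 CPM in the controls and at 149 and 145 CPM with chaetocin, both within the range of the controls.

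Among the 5 chromosome structure genes, *HMGB2* (chr4:173331695-173335125), a DNA-bending protein of proliferating cells, was at 245 and 226 CPM in the controls and at 386 and 370.2 CPM with chaetocin. The groups did not overlap, and replicates were close in both. Its log2 fold change was 0.68 ± 0.16 (SE), with an adjusted p of 0.0649 by edgeR and 0.00716 by DESeq2, and of 0.00532 to 0.483 over the alternatives. *TOP2A*, the topoisomerase that untangles sister chromatids, and *MKI67* (Ki-67), the coat of mitotic chromosomes, had log2 fold changes of 0.42 and 0.33 without overlap. In *MKI67* the lower chaetocin sample (655 CPM) was nearly level with the higher control (652 CPM), much closer than the replicates of either group. The condensin subunits *NCAPH* and *SMC4* had log2 fold changes of 0.27 and 0.13. *SMC4* was at 355 and 425 CPM in the controls and at 451 and 403 CPM with chaetocin, with overlap. Exons of *TRIM59* and *IFT80* on the other strand cover 18.5% and 7.18% of its exons. Exons of other genes also lie over part of the exons of *FOXM1* (15.9%), *PLK1* (11.6%), *BUB1B* (10.2%), *PRC1* (7.35%) and *CENPA* (6.96%). The share of exon bases is not the share of reads in doubt. The overlapping gene had 0 reads in all 4 samples for *BUB1B*, 4 to 19 for *PLK1* and 4 to 14 for *PRC1*. It had 258 to 376 for *FOXM1* and 1095 to 1764 for *CENPA*. Counts of these members are uncertain to an extent that was not measured.

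**Figure D4:**
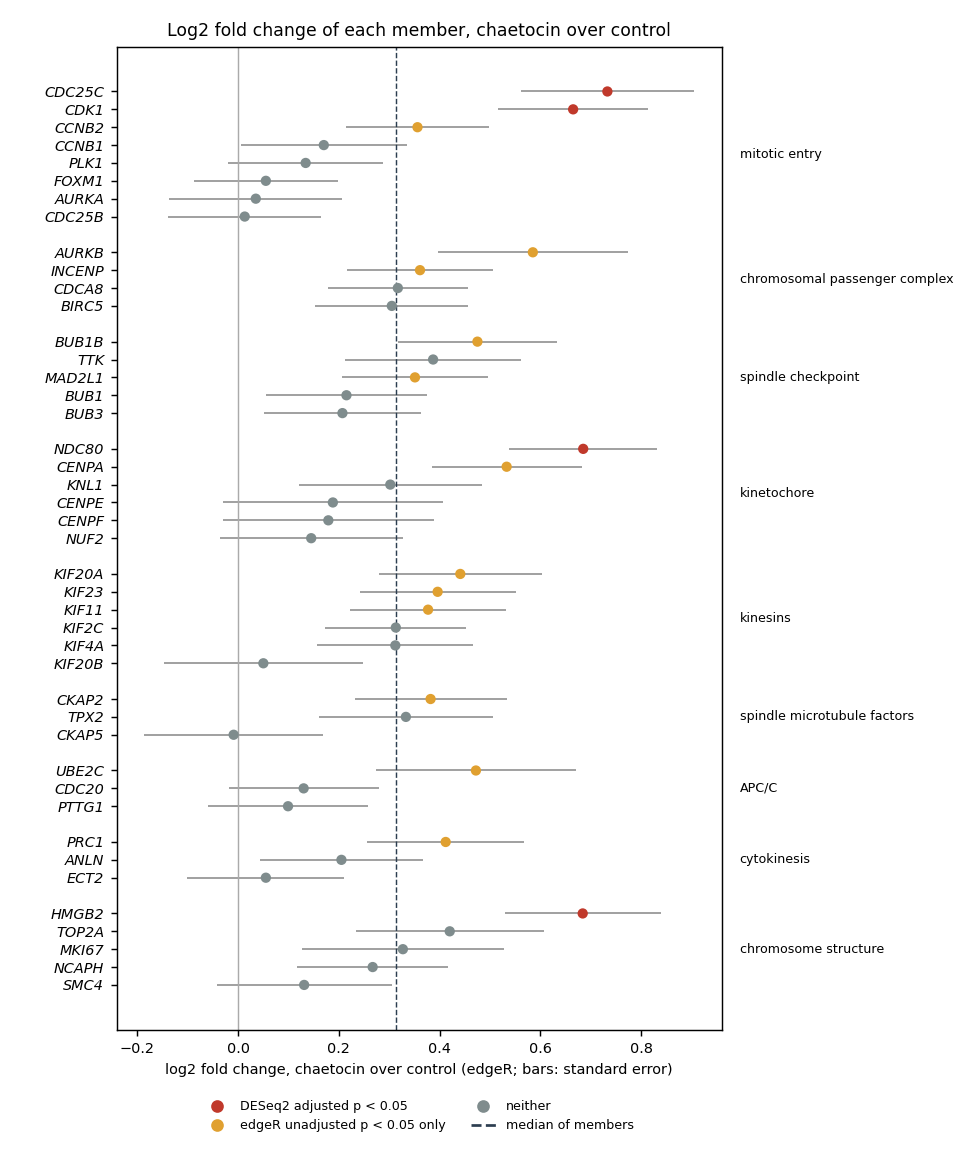
Each row is 1 member, grouped by role, with its edgeR log2 fold change of chaetocin over control (horizontal axis) and a bar of 1 standard error. Red points are the 4 members called by DESeq2, yellow points the other members with an unadjusted edgeR p under 0.05 and grey points the rest, and the dashed line is the median of 0.31.

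By size, 6 members had a log2 fold change of at least 0.5, 23 lay between 0.2 and 0.5, and 14 were under 0.2. The 6 came from 4 roles, namely entry (*CDC25C* and *CDK1*), kinetochore (*NDC80* and *CENPA*), passenger complex (*AURKB*) and chromosome structure (*HMGB2*). The median of the roles was lowest for the APC/C genes at 0.13 and highest for the checkpoint at 0.35, which is less than the range within each of the 9 roles. This order differed by sample. Against the control mean, chaetocin 1 was lowest for entry (0.16) and highest for the passenger complex (0.37). In chaetocin 2 the lowest role was the APC/C (0.03) and the highest was chromosome structure (0.49). Per kilobase of exon, the control level ranged 25.0-fold, from 167 CPM per kb for *CCNB1* to 6.70 for *CDC25C*, the member with the largest log2 fold change.

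The difference between the 2 chaetocin samples went in part with exon length, taken over all annotated exons of a gene. In the 5 members with the longest exon length (*MKI67*, *CENPF*, *KNL1*, *CENPE* and *CKAP5*, 8538 to 12807 bases), chaetocin 2 was above chaetocin 1 in all 5, against 17 of the other 38. The next longest, *SMC4* (8457 bases) and *BUB3* (8300 bases), went the other way, by -0.17 and -0.14 on the log2 scale. The largest differences were 0.66 in *CENPE* and -0.55 in *UBE2C*, the shortest member. Across the 43 members, exon length and the log2 difference of chaetocin 2 from chaetocin 1 had a Spearman's rho of 0.47, and across 15981 tested genes it was 0.18. For control 2 against control 1 the values were 0.25 and 0.09. Exon length and the log2 fold change had a rho of -0.27 across members and -0.17 across all. These values are across genes of the same 4 libraries, which are not independent, and what moves with length was not tested.

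A further 136 mitotic genes in 6 lists were read in the same way, and 133 were tested. Of these, 100 had a log2 fold change above 0, against 50.9% of all genes tested, and the median was 0.20. Both chaetocin samples lay above both controls in 61 and below both in 15, against 26.8% and 26% of all genes. edgeR called 3 higher and 0 lower, against 1.11% and 0.743% of all genes. At an unadjusted p under 0.05 there were 32 higher and 0 lower, against 10.9% and 9.43%, and DESeq2 called 7 higher and 0 lower, against 2.72% and 2.81%. *MYBL2*, which activates late cell-cycle genes with MuvB, was at 53.7 and 52.8 CPM in the controls and at 118 and 100.4 CPM with chaetocin. It rose by 1.04 ± 0.15 (SE) on the log2 scale (adjusted p = 0.0279 by edgeR). *NUSAP1*, a spindle microtubule bundler, was at 106 and 108 CPM in the controls and at 213 and 203 CPM with chaetocin, and it rose by 0.96 ± 0.14 (SE, adjusted p = 0.0297 by edgeR). *SPC25*, given above, was the third. In all 3 the replicates were close and the groups far apart. Without control 1, and likewise without control 2, 0 of the 133 were called higher by edgeR, and the adjusted p of these 3 genes was then between 0.0806 and 0.144.

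By list, the median log2 fold change was 0.34 for other kinetochore genes (29 tested), 0.32 for other entry and MuvB genes (24), 0.21 for other kinesins and spindle genes (34) and 0.13 for other checkpoint genes (11). It was 0.08 for other APC/C genes (18) and -0.03 for other condensin and cohesin genes (17). Of the other APC/C genes, *UBE2S*, the E2 enzyme that extends ubiquitin chains, had the lowest p. It was at 136 and 152 CPM in the controls and at 298 and 204 CPM with chaetocin, with a log2 fold change of 0.80 ± 0.20 (SE, adjusted p = 0.081 by edgeR). Leaving out 1 sample, the log2 fold change of *UBE2S* ran from 0.52 to 1.04. The 14 structural subunits of the APC/C, set apart after their values were seen, had a median of 0.02, with 7 above and 7 below 0. *CDCA5* (sororin), which protects sister cohesion, was at 75.2 and 81.7 CPM in the controls and at 118 and 128 CPM with chaetocin, with a log2 fold change of 0.65 (adjusted p = 0.0602 by edgeR). In the checkpoint list, the histone H3 kinase *HASPIN* had the lowest p. It was at 6.27 and 7.62 CPM in the controls and at 10.5 and 13.1 CPM with chaetocin, and its log2 fold change was 0.77 ± 0.22 (SE, adjusted p = 0.113 by edgeR).

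Markers of cell identity were read in the same libraries. Of 11 glioma and astroglial markers, *VIM* and *CD44* were abundant and *NES* and *SLC1A3* present, while *GFAP* was at 1.02 CPM or less and *AQP4* at 0 reads in all 4 samples. *S100B* and *SOX2* were at 0 reads in both controls and at 0.141 CPM (5 reads) or less with chaetocin. The summed level of this list was 5553 and 4844 CPM in the controls and 3249 and 1998 CPM with chaetocin. Of its 8 tested markers, 6 had both chaetocin samples below both controls and 2 had both above, against 26% and 26.8% of all genes. Lower calls were 1 by edgeR and 3 by DESeq2, against 0.743% and 2.81% of all genes. *SLC1A3* fell by 1.22 on the log2 scale (adjusted p = 0.0266 by edgeR). *CD44* and *VIM* had log2 fold changes of -1.20 and -0.80, with adjusted p of 0.0699 and 0.134 by edgeR and 0.000166 and 0.0144 by DESeq2. *SLC1A2* and *ALDH1L1*, both at 3.12 CPM or less in all samples, had log2 fold changes of 1.29 and 1.39 without passing edgeR's test. Of 8 fibroblast markers, *COL1A1* and *COL1A2* were abundant, and the sums were 1505 and 1076 CPM in the controls and 954 and 529 CPM with chaetocin, and *PDGFRB* fell by 1.65 on the log2 scale (adjusted p = 0.0306 by edgeR). The 12 leukocyte markers summed to 27.7 and 22.8 CPM in the controls and to 35.6 and 18.9 CPM with chaetocin, mostly from *CSF1R*, with *CD3E* and *MS4A1* at 0 in all 4. Of the 5 leukocyte markers tested, edgeR called 2 higher, against 1.11% of all genes, and both were near 1 CPM or less. The median log2 fold change over the 5 was 1.30. *PTPRC* had 0 and 1 reads in the controls and 15 and 27 with chaetocin (adjusted p = 0.0412), and *ITGAM* had 0 and 1 reads and then 24 and 29 (adjusted p = 0.0341). The part of these lists in the members' values was not tested.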

How the data were processed

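RNA sequencing of U87MG cells was read in 4 samples, 2 control and 2 chaetocin, grouped by their titles. Each deposited table holds the authors' unnormalized read counts for the genes of 1 sample. The submitters' processing notes name cutadapt, TopHat, TopHat2, SAMtools and GRCh37, whereas the counting tool, annotation and strand setting are not given in the sources used here. Members and lists were chosen with earlier results of these data known. A gene name reference gave symbols for 51996 of 57905 identifiers. GENCODE v29, which held 52338 of the 57905, gave exon lengths and positions of genes on GRCh38.

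Counts were filtered with filterByExpr (minimum count 10), TMM-normalized and tested with edgeR 4.0.16 in R 4.3.3 (quasi-likelihood, robust, no block), with Benjamini-Hochberg adjustment over 16416 genes and a threshold of 0.05. SE was derived from the fold change and F. DESeq2 1.42.0 was an alternative. The common biological coefficient of variation was 16.8%. Replicates differed by more than counting noise, with a chi-square per gene of 20.7 in the control and 61.2 in the chaetocin pair (medians 2.56 and 6.43). Depth limits every share and level, and 3 reads are 0.0921 to 0.141 CPM, which covers counting error only.

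All members are named. Values per sample are given for members called by DESeq2 and, in each role, for those with the lowest p and the largest and smallest log2 fold change, and of the wider lists for called genes and otherwise the lowest-p gene. The values of *CCNB1*, *FOXM1*, *BUB1*, *CENPA*, *CENPE*, *MKI67*, *SPC24* and the marker genes are outside that rule and were chosen after being seen.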

Additional observations from a re-analysis of the deposited data

How the results depend on the processing

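The number of calls differed between tests and between fits that left out 1 sample. In each of the latter, 1 group holds a lone sample, which is assumed to vary like the pair of the other group. Over all genes, 182 higher and 122 lower became 787 and 759 with no filter, 114 and 80 under a minimum of 10 counts per sample, 447 and 461 by DESeq2 and 1791 and 1548 at an unadjusted p, and leaving out 1 sample gave 103 to 1249 higher and 34 to 1536 lower. Members called higher, 0 as reported, were 3 with upper-quartile factors, 5 with no filter, 4 by DESeq2, 16 at an unadjusted p and 0 to 12 without 1 sample (12 without chaetocin 1, 9 without chaetocin 2, and 0 without control 1 or control 2). Other mitotic genes called higher, 3 as reported, were 13 with no filter, 7 by DESeq2, 32 at an unadjusted p and 0 to 33 without 1 sample, and those called lower were 0 to 2. Among the fits without 1 sample, higher calls over all genes were likewise most numerous without chaetocin 1, then without chaetocin 2. They were fewest without control 1 or control 2. The member counts of these fits thus followed the number of calls over all genes, and whether members exceeded it was not tested. The cause of the shifts between settings was not tested. The median log2 fold change of the members was 0.39 with upper-quartile factors and 0.24 to 0.37 without 1 sample. Upper-quartile factors moved the median of all genes from 0.01 to 0.09 and deposited totals without a factor to 0.17, with members at 0.48. Members with both chaetocin samples above both controls were 28 with RLE factors, 35 with upper-quartile factors and 37 with deposited totals, against 26.5%, 32.5% and 39.6% of all genes under the same scaling. With TTTGAA alone the CHR share was 67.6% of members and 15.4% of all promoters.

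The sign turned in 9 members, all with a log2 fold change under 0.2. *CKAP5* was at 0.069 with upper-quartile factors, 0.013 under the minimum of 10 counts and 0.019 with protein-coding genes only, and *CDC25B* at -0.006 with no filter. Leaving out 1 sample, the log2 fold changes ran from -0.13 to 0.15 for *CDC25B*, -0.16 to 0.22 for *AURKA*, -0.014 to 0.13 for *FOXM1*, -0.25 to 0.31 for *KIF20B*, -0.15 to 0.13 for *CKAP5*, -0.029 to 0.31 for *NUF2*, -0.18 to 0.49 for *CENPE*, -0.063 to 0.40 for *CENPF* and -0.081 to 0.21 for *ECT2*. The other 34 members kept a log2 fold change above 0 in all fits. In 16 of these it moved by over 1.5 times without 1 sample, with ranges of 0.23 to 0.60 for *TOP2A*, 0.15 to 0.50 for *MKI67*, 0.25 to 0.62 for *KIF20A*, 0.24 to 0.56 for *TTK*, 0.07 to 0.51 for *KNL1*, 0.01 to 0.27 for *SMC4* and 0.01 to 0.19 for *PTTG1*. The others were *ANLN*, *BIRC5*, *BUB1*, *CCNB1*, *CDC20*, *KIF4A*, *NCAPH*, *PLK1* and *UBE2C*.

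The groups share replicate numbers 1 and 2, and no label says that a number marks a batch. The deviations of equally numbered samples correlated across genes with r = 0.123. With a replicate block, edgeR called 1036 genes higher and 1053 lower, 7 members higher (*CDK1*, *CDC25C*, *AURKB*, *BUB1B*, *CENPA*, *NDC80* and *HMGB2*) and 18 other mitotic genes higher. That fit has 1 residual degree of freedom, against 2, and a median prior of 41.5 degrees of freedom against 6.29.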

Other observations

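A list of 34 tested G1/S and replication genes, which precede mitosis in the cycle, had a median log2 fold change of 0.22, with 27 above 0, against 50.9% of all genes tested. Of these, 21 had both chaetocin samples above both controls and 4 had both below, against 26.8% and 26% of all genes. edgeR called 3 higher and 0 lower, against 1.11% and 0.743%. *CCNE1* (cyclin E1), which starts S phase with CDK2, was at 10.8 and 11.5 CPM in the controls and at 26.1 and 24.5 CPM with chaetocin. It rose by 1.18 on the log2 scale (adjusted p = 0.0279 by edgeR). *RRM2*, a subunit of ribonucleotide reductase, was at 322 and 323 CPM in the controls and at 678 and 628 CPM with chaetocin, and *E2F1*, the transcription factor of S-phase genes, was at 166 and 175 CPM and at 345 and 315 CPM. They rose by 1.02 and 0.95 on the log2 scale, both with an adjusted p of 0.0311 by edgeR. These 3 genes were not part of the naming rule and are named because the list had few calls. In 25 of the 34, control 2 was above control 1.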
